A study of Mus musculus with 24 samples.

Results

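The MHC class II and antigen-processing genes measured here were 8 of the 770 genes of the panel: H2-Aa, H2-Ab1, H2-Eb1, H2-DMa, Cd74, Ciita, Ctss and Ctsh. They were taken by name from the table, by a rule that uses no measured value, and were followed through all 24 tumour samples by treatment arm. All 8 passed the filter on weak signal (20 or more in 4 or more samples), as did 621 of the 770 genes. Members spanned a wide range of signal, and Ciita and H2-Eb1 passed mainly through a few tumours, since Ciita reached 20 in 5 of 24 samples and H2-Eb1 in 11.

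The tumours grew from NT2.5 cells, a single mammary tumour line, of which 50000 cells were placed in the mammary fat pad of female neu-N mice aged 7 to 8 weeks (strain label FVB-Neu-N, mice that carry the rat neu gene as a transgene and are tolerant to its product). From day 3 the mice were dosed for 3 weeks. Entinostat (ENT), which inhibits histone deacetylases of class I, was given by mouth at 5 mg/kg each day, and antibodies to PD-1, CTLA-4 or HER2 were injected at 100 µg per mouse. Vehicle mice received methylcellulose and isotype antibodies. No antibody dose is listed for the ENT arm. ENT against vehicle, and ENT+PD1 against ENT, therefore also differ in whether any antibody is listed. Samples numbered 4 for vehicle, 4 for ENT, 4 for ENT+PD1, 4 for ENT+CTLA4, 4 for ENT+PD1+CTLA4 and 2 for ENT+CTLA4+HER2. A further 2 samples bear the same titles as ENT+PD1 replicates 1 and 2 and are called the repeat-titled pair. Every arm except vehicle contained entinostat, so no antibody was given alone. All arms share the 1 tumour line, the sex and the strain of host.

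RNA was counted on the nCounter platform, which tallies single RNA molecules bound by barcoded probe pairs without amplification. The values are normalized signal on a linear scale, and recovered counts per sample ran from 226863 to 483412. Vehicle, ENT and ENT+PD1 ran on one cartridge of 12 samples and all other samples on the second, per the file headers. Any comparison between an anti-CTLA-4 arm and vehicle, ENT or ENT+PD1 is therefore one in which treatment and cartridge cannot be told apart. The labels describe whole tumours, whereas the extraction protocol goes on to the isolation of immune cells. The 7 epithelial and tumour genes tested (Epcam, Cdh1, Itgb4, Muc1, Egfr, Erbb2 and Spp1) summed to 32063 to 68733 per sample. The sum does not show which of these genes, or which cells, it came from, so the share of tumour cell RNA was not measured. In bulk RNA, fewer cells of a type and less RNA per cell cannot be told apart. The labels do not state separate animals within an arm, so each p-value measures only the spread between these samples.

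MHC class II molecules are pairs of an alpha and a beta chain that carry peptides from engulfed proteins to the surface of dendritic cells, macrophages and B cells, where CD4 T cells read them. The invariant chain CD74 holds a new pair until proteases of the endosome degrade it, after which H2-DM helps exchange the remaining fragment for an antigen peptide. The transactivator CIITA switches most of these genes on together, constitutively in professional antigen-presenting cells and after interferon gamma in many other cells.

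Class II transcripts were highest in the same pair of tumours for every member, ENT+PD1 replicates 5 and 6, and no member passed the limma test between any arms. For each of the 8 genes, these were the only samples above all 20 samples outside the ENT+PD1 arm. ENT+PD1 replicates 1 and 2 lay within the range of vehicle for 7 and 8 members. The mean over the members of log2(value + 1), each gene centred on its own mean, was 1.76 in ENT+PD1 replicate 6 and 1.44 in replicate 5, then 0.92 in ENT+CTLA4+HER2 replicate 2 and 0.81 in ENT+PD1+CTLA4 replicate 1. The lowest samples were ENT replicate 1 (−0.76), vehicle replicate 1 (−0.71) and ENT replicate 4 (−0.68). By arm this mean was 0.63 ± 1.13 in ENT+PD1, −0.27 ± 0.34 in vehicle and −0.45 ± 0.47 in ENT (SD, n = 4 each). On the second cartridge it was 0.06 ± 0.59 for ENT+PD1+CTLA4 and −0.03 ± 0.29 for ENT+CTLA4 (SD, n = 4 each). It was 0.46 ± 0.65 in ENT+CTLA4+HER2 and −0.33 ± 0.42 in the repeat-titled pair (SD, n = 2 each). The ENT+PD1 arm thus spanned 2.11 log2 units, against 0.77 in vehicle.

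**Figure D1:**
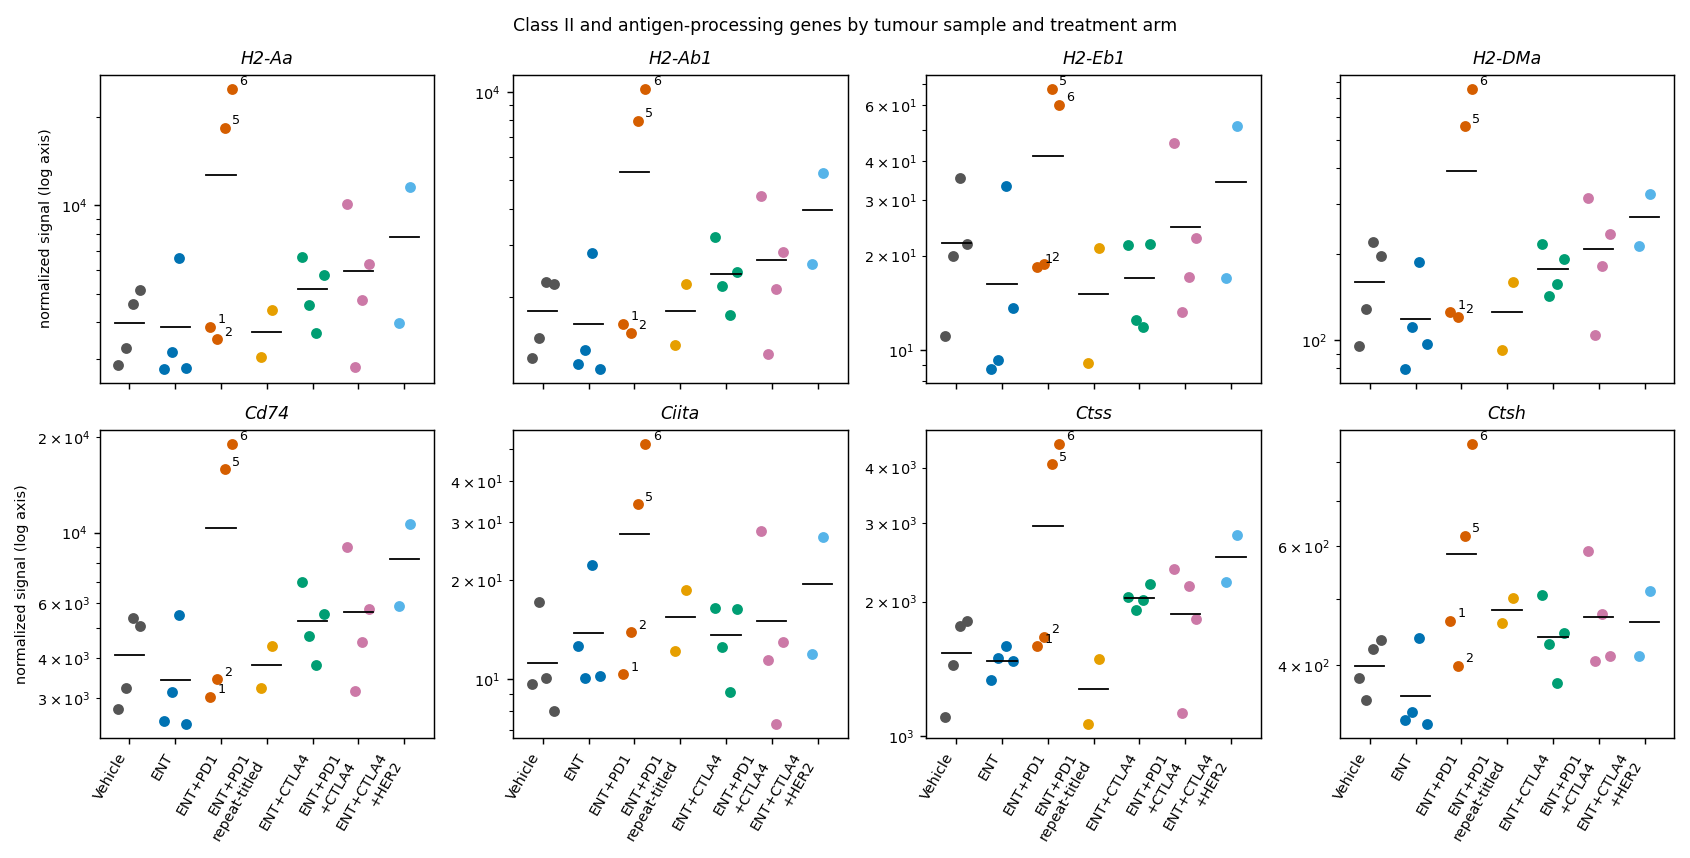
Normalized signal of each gene (vertical log axis, a separate scale per panel) in every sample, by treatment arm; points are samples, bars are arm means, and numbers mark the replicates of ENT+PD1. In all 8 panels ENT+PD1 replicates 5 and 6 are the highest points, while replicates 1 and 2 sit among the other arms.

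H2-Aa and H2-Ab1 encode the alpha and beta chains of the I-A molecule. H2-Aa was 5142, 2859, 3264 and 4609 in vehicle replicates 5, 1, 2 and 3, and 2775, 3170, 6625 and 2787 in ENT replicates 1 to 4. It was 3845, 3498, 18392 and 24989 in ENT+PD1 replicates 1, 2, 5 and 6. The ENT+PD1 samples therefore fell at 2 levels, the lower of which overlapped vehicle and ENT. On the other cartridge H2-Aa was 6660, 4582, 3658 and 5808 in ENT+CTLA4 replicates 1, 2, 5 and 6, and 10084, 2806, 4754 and 6311 in ENT+PD1+CTLA4 replicates 1, 2, 5 and 6. In ENT+CTLA4+HER2 it was 3973 and 11575, and in the repeat-titled pair 3036 and 4384. All of these arms overlapped one another and vehicle.

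The arm mean of H2-Aa was 12681 ± 10747 in ENT+PD1, 3969 ± 1082 in vehicle and 3839 ± 1866 in ENT (SD, n = 4 each). The difference on the log2 scale was 1.20 ± 0.56 (SE) from vehicle and 1.31 ± 0.56 from ENT, with limma adjusted p = 0.470 and 0.250, so neither passed. H2-Ab1 was 2224, 1240, 1454 and 2250 in vehicle replicates 5, 1, 2 and 3, and 1188, 1326, 2829 and 1143 in ENT replicates 1 to 4. It was 1625, 1514, 7988 and 10264 in ENT+PD1 replicates 1, 2, 5 and 6. The pattern over these 12 samples was that of H2-Aa, with ENT replicate 3 the highest outside ENT+PD1 for both chains. H2-Ab1 differed by 1.12 ± 0.54 from vehicle and by 1.33 ± 0.54 from ENT (limma adjusted p = 0.470 and 0.236). In the other arms H2-Ab1 ran from 1741 to 3215 in ENT+CTLA4, from 1282 to 4429 in ENT+PD1+CTLA4, from 2595 to 5314 in ENT+CTLA4+HER2 and from 1380 to 2215 in the repeat-titled pair.

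H2-Eb1, the beta chain of the I-E molecule, gave a weak signal and exceeded the negative control probes (their mean plus 2 SD in the same sample) in 17 of 24 samples. That limit ran from 10.8 to 25.3 on the first cartridge and from 8.54 to 16.9 on the second. For any gene, counts of samples above it are therefore not alike between cartridges. H2-Eb1 was 67.9 and 60.2 in ENT+PD1 replicates 5 and 6 and 18.4 and 18.8 in replicates 1 and 2. Vehicle replicates 5, 1, 2 and 3 had 21.7, 11.1, 19.97 and 35.3, and ENT replicates 1 to 4 had 8.74, 9.29, 33.3 and 13.6. Since 1 of 4 ENT samples and 2 of 4 vehicle samples stood above the controls, the size of the difference of H2-Eb1 from these arms is not measured. ENT+PD1+CTLA4 replicate 1 (45.4) and ENT+CTLA4+HER2 replicate 2 (51.6) were the other high samples.

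Cd74, the invariant chain, followed the I-A chains in every arm. It was 5062, 2756, 3212 and 5366 in vehicle replicates 5, 1, 2 and 3, and 2525, 3123, 5505 and 2481 in ENT replicates 1 to 4. In ENT+PD1 replicates 1, 2, 5 and 6 it was 3025, 3436, 15858 and 19109. The arm means of 10357 ± 8337 in ENT+PD1 and 4099 ± 1307 in vehicle (SD, n = 4 each) differed by 0.93 ± 0.51 on the log2 scale (limma adjusted p = 0.490), and ENT+PD1 differed from ENT by 1.22 ± 0.51 (adjusted p = 0.242). Neither difference passed, and the ENT+PD1 samples overlapped those of vehicle and ENT.

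H2-DMa encodes the alpha chain of H2-DM, which edits the peptides loaded on class II. Vehicle replicates 5, 1, 2 and 3 had values of 196, 95.5, 128 and 221, and ENT replicates 1 to 4 had 79.7, 111, 188 and 97.1. ENT+PD1 replicates 1, 2, 5 and 6 had 125, 121, 559 and 757. The difference of H2-DMa was 0.89 ± 0.50 from vehicle and 1.32 ± 0.50 from ENT (limma adjusted p = 0.509 and 0.227). Its highest value elsewhere was 324 in ENT+CTLA4+HER2 replicate 2.

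Ciita, the transactivator, was the weakest member and exceeded the negative controls in 12 of 24 samples, among them 0 of 4 vehicle samples and 1 of 4 ENT samples. It was 51.9 in ENT+PD1 replicate 6, 33.9 in replicate 5, 13.9 in replicate 2 and 10.3 in replicate 1. Vehicle replicates 5, 1, 2 and 3 had 7.99, 9.69, 17.1 and 10.1. The size of any change in Ciita from vehicle or ENT is not measured, because those arms lay at the level of the controls. The highest values outside ENT+PD1 were 28.1 in ENT+PD1+CTLA4 replicate 1, 27.1 in ENT+CTLA4+HER2 replicate 2 and 22.2 in ENT replicate 3, the samples with the highest H2-Aa of their own arms.

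Ctss and Ctsh are cathepsins, cysteine proteases of the endosome and lysosome, and cathepsin S is the main enzyme that removes the invariant chain in dendritic cells and B cells. Ctss was 1808, 1104, 1444 and 1766 in vehicle replicates 5, 1, 2 and 3, and 1336, 1498, 1587 and 1473 in ENT replicates 1 to 4. In ENT+PD1 replicates 1, 2, 5 and 6 it was 1589, 1669, 4067 and 4523. Ctss was the only member of which every ENT+PD1 sample lay above every ENT sample, and the gap between the nearest samples, 1589 and 1587, was smaller than the SD within either arm. Of all genes tested, 6.12% were separated in that direction between these arms, and against vehicle, where no member was separated, 1.61% were. The difference of Ctss from ENT was 0.85 ± 0.29 (limma adjusted p = 0.206) and from vehicle 0.81 ± 0.29 (adjusted p = 0.470).

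Ctsh varied least of the 8 genes, 2.60-fold from the lowest to the highest sample, against 9.01-fold for H2-Aa and 4.25-fold for Ctss. It was 436, 382, 355 and 422 in vehicle replicates 5, 1, 2 and 3, and 331, 341, 439 and 327 in ENT replicates 1 to 4. In ENT+PD1 replicates 1, 2, 5 and 6 it was 465, 398, 621 and 850. Ctsh had the lowest p among the members in ENT+PD1 against ENT, with a difference of 0.65 ± 0.19 (limma adjusted p = 0.205, unadjusted p = 0.00279), and ENT+PD1 replicate 2 overlapped ENT replicate 3. Without ENT+PD1 replicate 1 the test called Ctss (limma adjusted p = 0.0413) and Ctsh (0.0475) among 4.19% of all genes, and without replicate 2 it called Ctsh (0.0328) among 1.45%, so the calls appeared when a low sample of the arm was removed.

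**Figure D2:**
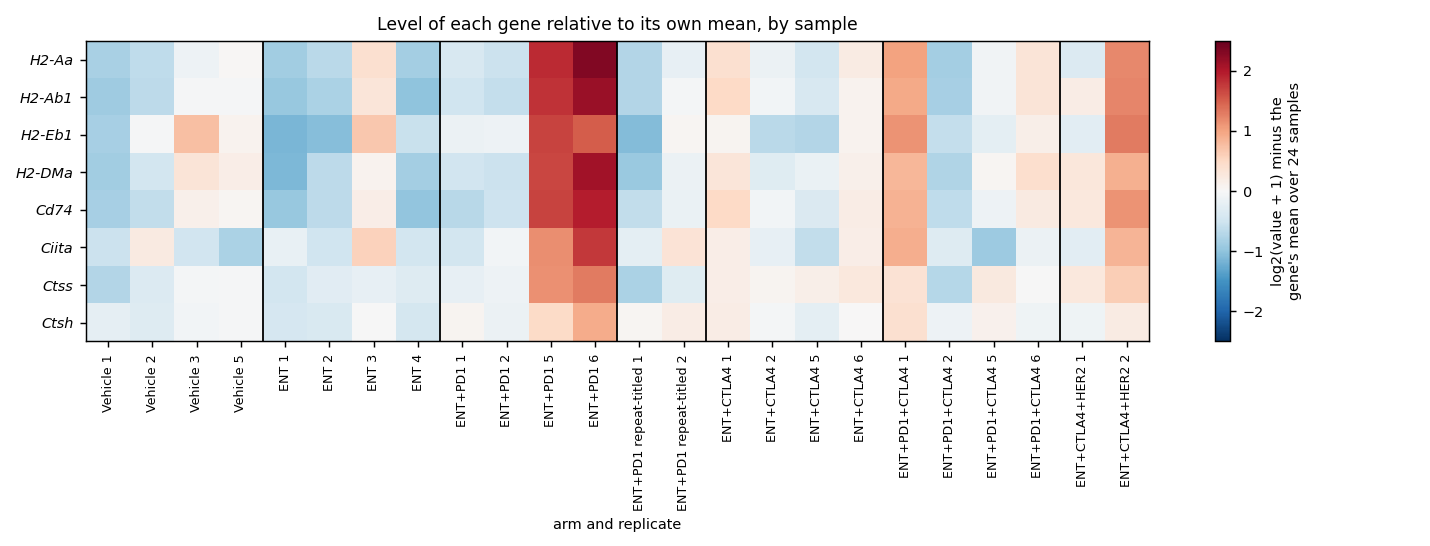
Colour gives log2(value + 1) of each gene minus that gene's mean over the 24 samples, with genes in rows and samples in columns ordered by arm and replicate; vertical lines divide the arms. Colours within a column are alike only in part, and in vehicle replicate 3 they run from −0.49 to 0.76. By column mean ENT+PD1 replicates 5 and 6 are highest, with ENT+CTLA4+HER2 replicate 2 and ENT+PD1+CTLA4 replicate 1 next, and colours are paler for Ctss and Ctsh.

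No member passed the test between ENT and vehicle, and the samples of the arms overlapped for all 8. Of the members, 1 had a higher estimate in ENT, as had 26.2% of all genes, and 7 a lower one. Their median was −0.18 on the log2 scale, against −0.11 over all genes tested. Under median rescaling, which sets the samples to a common median, the median of the members was 0.0011. With the values as deposited it was −0.46 without ENT replicate 3 and −0.31 without vehicle replicate 1. Without vehicle replicate 5 or 3 or ENT replicate 1 or 4 it lay between −0.11 and −0.095. Limma called 0 members (0 at unadjusted p under 0.05; edgeR 0, DESeq2 0) and 0% of all genes. The 95% interval of the fold change in ENT was 0.411 to 2.09 for H2-Aa, 0.395 to 1.90 for H2-Ab1 and 0.391 to 1.71 for Cd74, so a change of 2-fold in either direction lay within the interval for H2-Aa. For Ctsh the interval was 0.683 to 1.18.

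With anti-PD-1 added to entinostat the estimates for class II were the largest of the comparisons within a cartridge. All 8 members had higher estimates in ENT+PD1 than in ENT, as had 81.3% of all genes, with a median of 1.23 against 0.34 over all genes tested. An unadjusted p under 0.05 was found for 7 members and for 19.3% of all genes. Limma called 0 of the 8 after adjustment (edgeR 0, DESeq2 0), and 0.322% of all genes. Against vehicle all 8 estimates were also higher, as were 70.5% of all genes, with a median of 0.91 against 0.18 over all genes. There limma called 0 of 8 and 0% of all genes, and edgeR and DESeq2 called 0 members. A limma unadjusted p under 0.05 was found for 4 members, H2-Aa, Ciita, Ctss and Ctsh, against 9.66% of all genes. Ciita and H2-Eb1 enter the counts and medians of both comparisons. They passed the filter mainly through a few tumours, and the size of their differences from vehicle and ENT is not measured. Under median rescaling the medians of the members were 0.72 against ENT and 0.57 against vehicle, while those over all genes moved to −0.16 in both.

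Those medians rested on ENT+PD1 replicates 5 and 6. Without both of them, an alternative chosen after the data were seen, the median of the members was 0.093 against ENT and −0.10 against vehicle. H2-Aa was then −0.073, H2-Ab1 −0.14, H2-DMa −0.30 and Cd74 −0.29 relative to vehicle, each on the other side of 0 from the estimate with all samples. Leaving out replicate 6 alone gave medians of 0.79 against ENT and 0.52 against vehicle, and leaving out replicate 5 alone gave 0.59 against vehicle. These comparisons share the ENT+PD1 samples. The recovered totals of replicates 5 and 6 (347381 and 447175) were close to those of replicates 1 and 2 (321192 and 452745), and all 4 ran on the same cartridge. In their titles replicates 1 and 2 carry the letter P before the number, whereas replicates 5 and 6 carry the number alone. The labels do not say what this marks, and its part in the split was not tested.

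**Figure D3:**
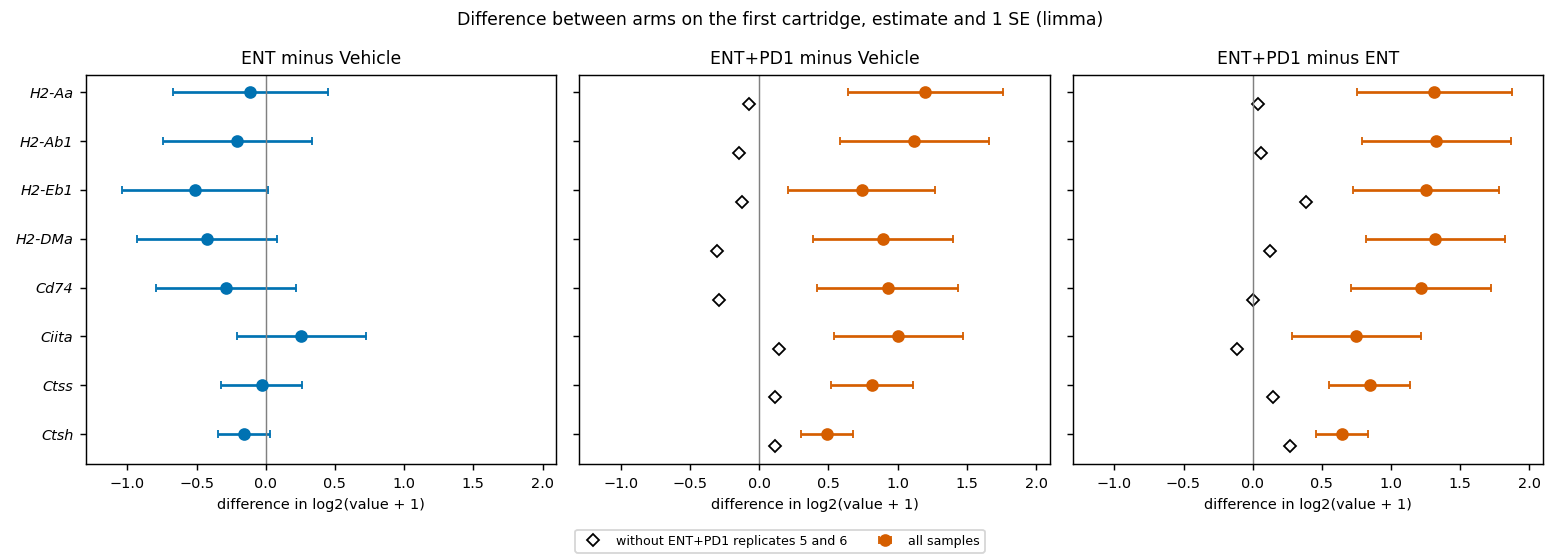
Difference in log2(value + 1) for each gene between arms of the first cartridge (horizontal axis), as limma estimate with 1 SE (filled circles) and, for ENT+PD1, the estimate without replicates 5 and 6 (open diamonds). The circles for ENT+PD1 lie right of 0 for all 8 genes, and the diamonds lie near 0.

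The repeat-titled pair, which bears the names of ENT+PD1 replicates 1 and 2 but ran on the other cartridge, did not reach the levels of replicates 5 and 6. Its 2 samples had 3218 and 4381 for Cd74, 92.4 and 159 for H2-DMa and 1064 and 1490 for Ctss, the first of these Ctss values being the lowest of all 24 samples. For Ctsh it had 461 and 503, above all 4 vehicle samples. The pair was left out of the reported tests and entered alternatives only.

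Among the arms of the second cartridge no member passed either. For ENT+PD1+CTLA4 against ENT+CTLA4 the median of the members was 0.07, against −0.01 over all genes, and limma called 0 members (0 at unadjusted p under 0.05; edgeR 0, DESeq2 0) and 0% of all genes. The sign of that median turned without ENT+CTLA4 replicate 5 (−0.07) or without ENT+PD1+CTLA4 replicate 1 (−0.22). Ctss was uniform in ENT+CTLA4, at 2044 ± 113 (SD, n = 4), and ranged from 1123 to 2370 in ENT+PD1+CTLA4.

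With anti-HER2 added to ENT+CTLA4 all 8 members had higher estimates, as had 67.6% of all genes, with a median of 0.51 against 0.17 over all genes. Limma called 0 of 8 (0 at unadjusted p under 0.05; edgeR 0, DESeq2 0), while 2.25% of all genes were called. Cd74 was 5859 and 10637 in ENT+CTLA4+HER2 and 6955, 4694, 3824 and 5543 in ENT+CTLA4 replicates 1, 2, 5 and 6, and the 95% interval of its fold change was 0.624 to 3.80. The median was 0.09 without ENT+CTLA4+HER2 replicate 2 and 1.02 without replicate 1. Against ENT+PD1+CTLA4 the median was 0.43, with 0 members called (0 at unadjusted p under 0.05; edgeR 0, DESeq2 0) and 3.06% of all genes, and it was −0.03 without ENT+CTLA4+HER2 replicate 2 and 1.00 without replicate 1. Without ENT+PD1+CTLA4 replicate 1 it was 0.71, and without its replicate 2 it was 0.21. Under median rescaling these medians were 0.29 and 0.18.

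Across cartridges the members were again uncalled while some other genes were called. ENT+CTLA4 against vehicle had a median of 0.33, with 7 of 8 higher (43% of all genes) and 1.45% of all genes called. ENT+PD1+CTLA4 against vehicle had 0.31, with 8 of 8 higher (44.3% of all genes) and 2.09% of all genes called. Against ENT these arms had medians of 0.49 and 0.61 with 0% of genes called in each. ENT+PD1+CTLA4 against ENT+PD1 had a median of −0.59, with 0 of 8 higher (19.5% of all genes) and 3.22% of all genes called. In these 5 comparisons limma called 0 members and none had an unadjusted p under 0.05, and edgeR and DESeq2 also called 0. Fitted on the compared groups only, ENT+CTLA4 against ENT called 1 member, Ctss (limma adjusted p = 0.0121), among 7.41% of all genes. Under median rescaling the median was 0.29 for ENT+CTLA4 against ENT and −0.23 for ENT+PD1+CTLA4 against ENT+PD1.

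Single samples moved these medians. ENT+CTLA4 against vehicle was 0.22 without vehicle replicate 1 and 0.21 without ENT+CTLA4 replicate 1. ENT+PD1+CTLA4 without its replicate 1 was 0.12 against vehicle and 0.29 against ENT. Without its replicate 2 it was 0.57 against vehicle, and without ENT replicate 3 it was 0.92 against ENT. ENT+PD1+CTLA4 against ENT+PD1 ran from −0.95 without ENT+PD1 replicate 1 and −0.93 without replicate 2 to −0.29 without replicate 5 and −0.19 without replicate 6, and was −0.33 without ENT+PD1+CTLA4 replicate 2. Its sign turned without both ENT+PD1 replicates 5 and 6 (0.40) and with the cartridge as a block (0.50). With that block, whose only link between the cartridges is the repeat-titled pair, ENT+CTLA4 and ENT+PD1+CTLA4 had medians of 1.40 and 1.38 against vehicle.

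An interaction term asked whether anti-PD-1 on top of entinostat went with a different change when anti-CTLA-4 was present. Its estimate was negative for all 8 members and positive for 18.8% of all genes, with a median of −1.10 against −0.33 over all genes. Limma called 0 of 8 (2 at unadjusted p under 0.05, Ctss and Ctsh, against 6.76% of all genes; edgeR 0, DESeq2 0) and 0% of all genes. Without ENT+PD1 replicates 5 and 6 the median was 0.021, without replicate 6 alone −0.71, and under median rescaling −0.54. The F test over the 5 arms with 4 samples called 0 of 8 by limma (1 at unadjusted p under 0.05, Ctsh, against 19.5% of all genes; edgeR 0) and 3.22% of all genes. DESeq2 called 1 member, Ctss, at an adjusted p = 0.0497, among 7.57% of all genes. Without ENT+PD1 replicate 2 limma called Ctsh (adjusted p = 0.0499), among 9.18%. In the order of arm means ENT+PD1 stood first for every member, and for each member the samples of all neighbouring arms in that order overlapped or differed by less than the spread within an arm.

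For most members the spread between samples lay within arms rather than between them. The share of the sum of squares of log2 values that lay within the 7 groups was 69.7% for H2-Aa, 66.7% for H2-Ab1, 67.3% for Cd74 and 75.1% for Ciita, against a median of 63.0% over all genes tested. It was lower for Ctss (52.3%) and Ctsh (54.9%).

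The members rose and fell together from sample to sample. Over 24 samples Pearson's r of log2 values was 0.99 for H2-Aa with H2-Ab1, 0.99 for H2-Ab1 with Cd74 and 0.98 for H2-DMa with Cd74. Over the 28 pairs of members the median r was 0.88 and the lowest 0.67, for Ciita with Ctss. The samples share housekeeping scaling and cartridge, and the correlation is given as a description. Taking deviations from the arm means left a median of 0.90, and leaving out ENT+PD1 replicates 5 and 6 left 0.78, with the lowest pair at 0.33. Set against the mean of the other 7 members, r was 0.99 for H2-Ab1 and 0.81 for Ciita. The slope on that mean was 1.32 for H2-Aa and H2-Ab1, 1.19 for Cd74, 0.67 for Ctss and 0.38 for Ctsh, so the cathepsins changed less per unit of class II.

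Because the I-A chains and the invariant chain moved nearly in step, their ratios were narrow. The ratio of H2-Aa to H2-Ab1 signal had a median of 2.26 over 24 samples, and 23 of them lay from 1.98 to 2.44. The exception was ENT+CTLA4+HER2 replicate 1 at 1.53, with 3973 for H2-Aa and 2595 for H2-Ab1. The ratio of H2-Aa to Cd74 was also lowest in that sample, 0.678 against a median of 1.03 and a next lowest of 0.859, whereas its ratio of H2-Ab1 to Cd74 was 0.443, near the median of 0.461. In that tumour the alpha chain was low relative to both of the others. It had the lowest recovered total (226863) and a summed neutrophil list of 13560, against at most 3279 in any other sample. The part of either in the ratio was not tested. The ratio of Ctsh to Cd74 spanned 3.93-fold, lowest in ENT+PD1 replicate 5 (0.0392) and replicate 6 (0.0445).

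**Figure D4:**
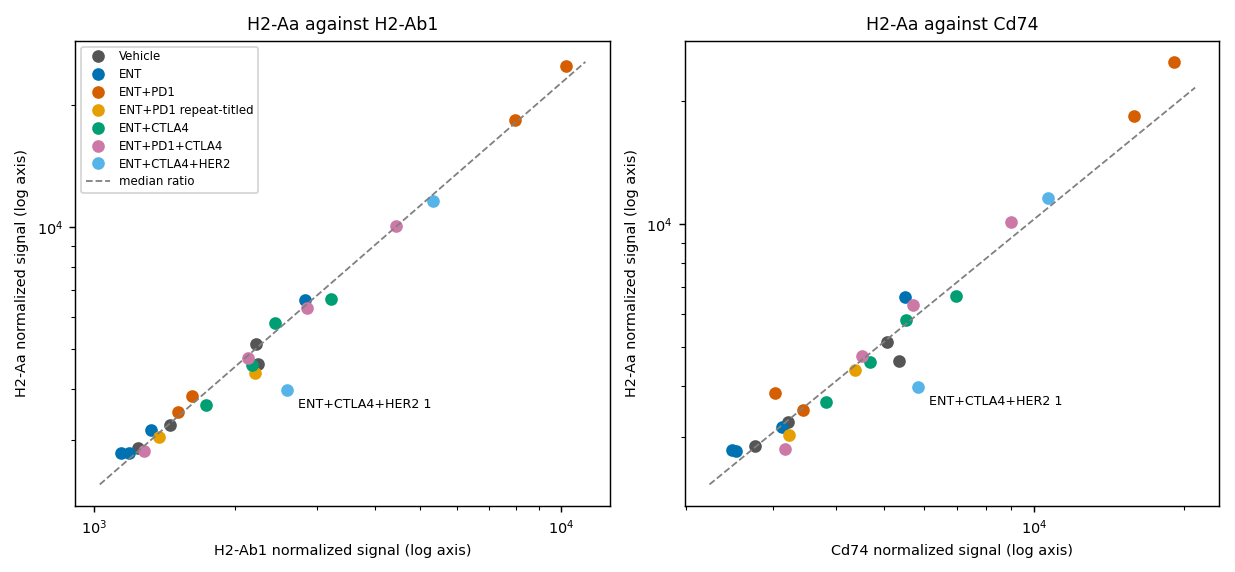
H2-Aa signal against H2-Ab1 (left) and Cd74 (right) in 24 samples coloured by arm, all axes logarithmic, with a dashed line at the median ratio (2.26 and 1.03). Samples follow the line over the whole range, and ENT+CTLA4+HER2 replicate 1 lies below it in both panels.

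Class II genes are known for shared promoter boxes by which they are controlled together. Of the members matched to a window in RefSeq, sequence is shown for a pair that holds both boxes, H2-Aa and H2-Eb1, and for Ctss, which holds neither. In textbook accounts an X box and a Y box lie side by side, the Y box being an inverted CCAAT motif bound by NF-Y and the X box the site of the RFX complex. The windows run from 250 bases before to 50 after the annotated start, in RefSeq build GRCm38.p6. By symbol, H2-Aa, H2-Eb1, H2-DMa and Ctss were matched to one, 4 of the 8 members. Cd74 was left out of this match, so whether its window holds the boxes is not described here. The letters searched on both strands were GCAAC, part of the X box, CTGATTGG, the Y box, and GAAANNGAAA, a form of the interferon-stimulated response element. None of these overlaps another. Capitals mark every match.
H2-Aa promoter, chr17:34287774-34288073, minus strand: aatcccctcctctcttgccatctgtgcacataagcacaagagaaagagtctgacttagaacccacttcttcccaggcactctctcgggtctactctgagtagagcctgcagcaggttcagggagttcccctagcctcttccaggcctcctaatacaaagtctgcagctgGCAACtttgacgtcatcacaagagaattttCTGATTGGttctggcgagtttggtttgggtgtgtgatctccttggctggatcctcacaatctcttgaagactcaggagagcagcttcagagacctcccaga
H2-Eb1 promoter, chr17:34305617-34305916, plus strand: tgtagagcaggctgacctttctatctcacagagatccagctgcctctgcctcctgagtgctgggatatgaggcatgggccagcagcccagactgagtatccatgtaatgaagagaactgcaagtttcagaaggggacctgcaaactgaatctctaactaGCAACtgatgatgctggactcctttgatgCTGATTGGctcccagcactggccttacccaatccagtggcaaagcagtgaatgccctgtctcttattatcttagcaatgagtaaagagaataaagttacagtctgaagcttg
Ctss promoter, chr3:95526536-95526835, plus strand: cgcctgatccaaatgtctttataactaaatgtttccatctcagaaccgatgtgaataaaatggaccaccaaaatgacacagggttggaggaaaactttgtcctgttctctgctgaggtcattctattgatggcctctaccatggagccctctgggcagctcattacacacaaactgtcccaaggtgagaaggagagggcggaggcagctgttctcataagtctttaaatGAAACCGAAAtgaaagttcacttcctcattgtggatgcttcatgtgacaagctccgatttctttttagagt

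H2-Aa and H2-Eb1 each held GCAAC followed by CTGATTGG on the plus strand of the window, with 25 and 24 bases between them. Of 32851 windows, 35.2% held GCAAC and 4.10% held CTGATTGG on either strand, while 0.116% held both in this order with a gap of 20 to 40 bases, a range set after the gaps were seen. Those windows belong to 36 gene symbols, 4 of them class II genes (H2-Aa, H2-Eb1, H2-Eb2 and H2-Oa). H2-DMa, which has 2 windows in the table, held no CTGATTGG in either and GCAAC only in the first, on the minus strand, although its r with H2-Aa was 0.96. The Ctss window held neither box and held GAAACCGAAA, beginning 21 bases before the start, a form found in 3.44% of windows. These matches describe letters and were not tested as binding sites. In the expression data H2-Aa and H2-Eb1 correlated at 0.90 and H2-Aa and Ctss at 0.90.

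Of the other class II and processing genes and their inducers, 18 of 32 listed were on the panel and 16 were tested. None was called in ENT+PD1 against ENT or vehicle or by the F test. The estimate was higher for 16 of 16 against ENT (median 0.44) and for 14 of 16 against vehicle (median 0.23), beside medians over all genes of 0.34 and 0.18 and the shares of 81.3% and 70.5% given above, so the list lay near the whole panel. H2-Ea-ps, the I-E alpha gene under a label that marks a pseudogene, followed the members most closely. It was 71.2, 80.0, 377 and 558 in ENT+PD1 replicates 1, 2, 5 and 6, against 69.9 to 130 in vehicle. Its difference from ENT was 1.17 ± 0.54 (limma adjusted p = 0.250). These values are of RNA, and whether an I-E molecule is made was not tested. H2-DMb1, a beta chain of H2-DM, stood above the negative controls in 0 of 24 samples and was not tested.

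H2-DMb2, the other beta chain of H2-DM, departed from its partner H2-DMa in a pair of tumours. It was highest in ENT+PD1+CTLA4 replicate 1 (221) and also high in ENT+CTLA4 replicate 6 (132), ahead of every other sample outside ENT+PD1. The ratio of H2-DMb2 to H2-DMa was 0.701 and 0.685 in these, against a median of 0.188. The summed T cell list was 1790 and 927 in the same samples, the highest of the 24, and the summed B cell list 782 and 562, also the highest; their part in H2-DMb2 was not tested. H2-Ob, a chain of the H2-DM inhibitor H2-O, did not follow the members (r = 0.12).

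The inducers of CIITA followed class II to differing degrees. Ifng, the cytokine that induces CIITA outside professional antigen-presenting cells, exceeded the negative controls in 7 of 24 samples and had r = 0.24 with the mean of the members. The receptor chain Ifngr1 and the kinase Jak2 had r = 0.83 each, and the interferon-induced transcription factor Irf1 had 0.60. Jak2 was 380 ± 97.3 in ENT+PD1 and 272 ± 43.6 in ENT (SD, n = 4 each), a difference of 0.45 ± 0.16 (limma adjusted p = 0.214). The interferon-induced chemokines Cxcl9 and Cxcl10 were highest in ENT+CTLA4+HER2 replicate 2 (116 and 81.3), which ranked 3 of 24 for the mean of the members. In ENT+PD1 replicate 6, the highest in class II, they were 36.3 and 73.7. Cxcl9 exceeded the negative controls in 11 of 24 samples. Creb1, a factor that also binds class II promoters, had r = 0.14, the cathepsin Ctsl 0.40, Tgfb1 0.61 and Il10 0.32. Il4 stood above the controls in 1 of 24 samples and was not tested.

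Receptors of T cells that bind class II, and co-stimulators of antigen-presenting cells, were mostly high in the same tumours. All 6 were higher in ENT+PD1 than in ENT and than in vehicle (medians 0.75 and 0.74), and limma called none. Of all genes, 81.3% and 70.5% were higher (medians 0.34 and 0.18), and 0.322% and 0% were called. Cd40, which receives help from CD4 T cells, was 33.3, 36.7, 98.3 and 117 in ENT+PD1 replicates 1, 2, 5 and 6 (r = 0.87). Cd80 and Cd86, the ligands of CD28 and CTLA-4, had r = 0.87 and 0.78, and Cd83, a marker of mature dendritic cells, 0.71. Lag3, an inhibitory receptor that binds class II, was 65.5, 71.9, 144 and 125 in ENT+PD1 replicates 1, 2, 5 and 6 (r = 0.71), and its difference from ENT was 0.65 ± 0.26 (limma adjusted p = 0.227). Cd4, the co-receptor that binds class II, exceeded the controls in 10 of 24 samples and was highest in ENT+PD1+CTLA4 replicate 1 (96.3), above ENT+PD1 replicate 6 (52.9).

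Among the 613 other genes tested, those most like the mean of the members over 24 samples were H2-Ea-ps (r = 0.97), the leukocyte integrin Itgal (0.91), the kinase Syk (0.91), the interleukin 1 receptor antagonist Il1rn (0.91), the class I chain H2-D1 (0.90) and the NF-kB subunit Rel (0.90). Next came the chemokine receptor Cxcr4 (0.89), the beta-glucan receptor Clec7a (0.89), the interleukin 33 receptor Il1rl1 (0.89) and the myeloid factor Irf8 (0.89). The median r of all 613 was 0.43 and 53 exceeded 0.8, so a high r was common. Without ENT+PD1 replicates 5 and 6, r was 0.93 for H2-Ea-ps and ran from 0.74 (Il1rl1) to 0.83 (H2-D1) for the other 9.

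Genes of antigen-presenting cells were high in the same tumours, as were those of several other cell types. The summed dendritic cell list (12 genes on the panel) was 3334 and 2252 in ENT+PD1 replicates 6 and 5, 859 to 866 in replicates 2 and 1, 703 to 1232 in vehicle and 962 to 1162 in ENT. The summed macrophage and monocyte list (15 genes) was 14844 and 11743 in ENT+PD1 replicates 6 and 5, 4865 to 5700 in the other samples of the arm, 4390 to 7342 in vehicle and 5494 to 6029 in ENT. In ENT+PD1 against ENT the estimate was higher for 11 of 11 dendritic and 14 of 14 macrophage genes tested, and none was called. Of all genes, 81.3% were higher and 0.322% were called. Over 24 samples the list means had r = 0.89 and 0.81 with the mean of the members. Of these lists, only Marco exceeded the negative controls in 4 samples or fewer. Higher estimates in ENT+PD1 than in ENT were also found for 11 of 11 T cell, 11 of 11 endothelial and stromal and 7 of 7 neutrophil genes tested. The numbers were 6 of 7 for NK cells, 4 of 4 for B cells and 2 of 7 for epithelial and tumour cells.

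B cell markers were mostly at the level of the negative controls. Of 13 listed genes 4 were tested, and Cd79a, Pax5, Blk, Cr2, Tnfrsf13c, Tnfrsf17 and Cxcr5 were among those that exceeded the controls in 4 samples or fewer. The summed B cell list was 382 and 356 in ENT+PD1 replicates 5 and 6, 261 and 293 in replicates 2 and 1, 203 to 260 in vehicle and 175 to 282 in ENT. The summed T cell list was 655 and 813 in ENT+PD1 replicates 5 and 6 and 140 to 263 in replicates 2 and 1, against 203 to 245 in vehicle and 154 to 266 in ENT. The T cell list mean had r = 0.76 with the members. The summed NK cell list was 350 and 370 in ENT+PD1 replicates 5 and 6 and 117 and 195 in replicates 2 and 1, against 125 to 181 in vehicle and 108 to 173 in ENT (r = 0.77). Of its 7 genes tested 1, Klrk1, was called higher in ENT+PD1 than in ENT, as were 0.322% of all genes. The summed endothelial and stromal list was 25923 in ENT+PD1 replicate 6, the highest of the 24 samples, and 14510 in replicate 5, against 9224 to 15797 in vehicle (r = 0.51). The epithelial and tumour list had r = −0.73 with the members, and summed to 36607 and 32063 in ENT+PD1 replicates 5 and 6 against 51038 to 68733 in vehicle. The part of these cell types in the class II levels was not tested.

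**Figure D5:**
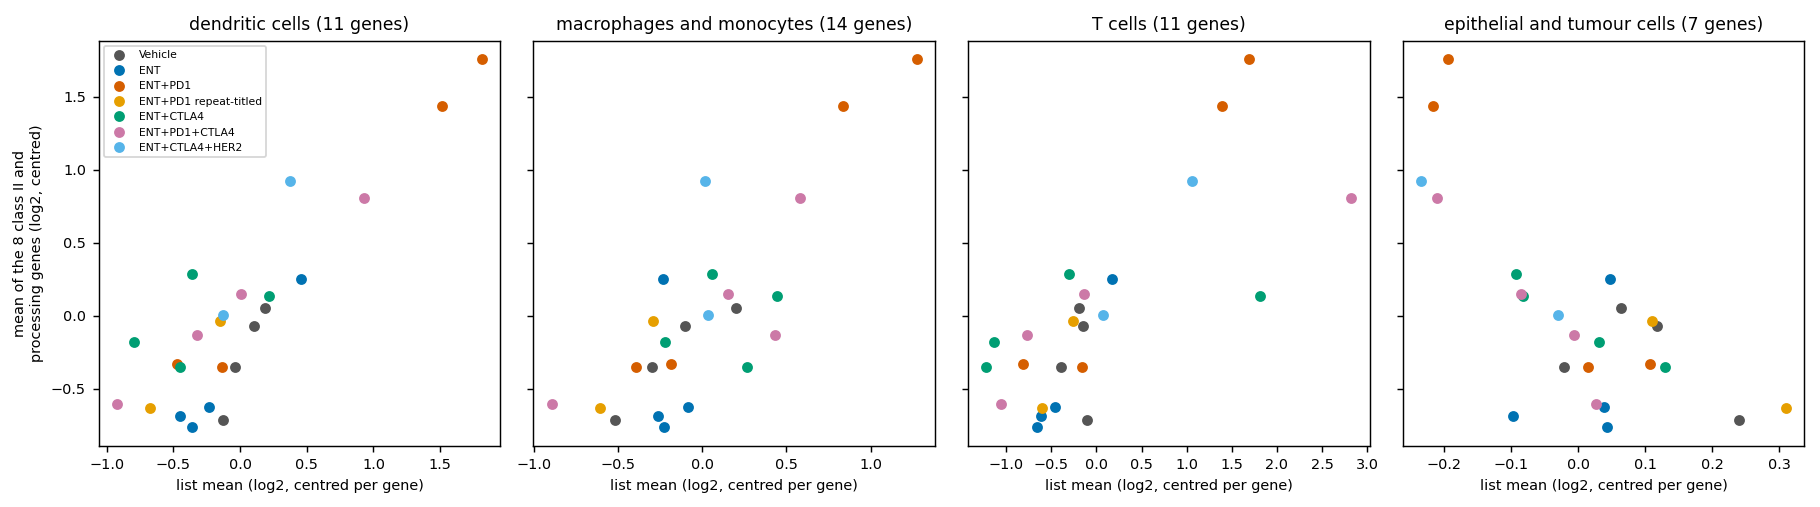
Mean of the 8 class II and processing genes (vertical axis, log2, each gene centred over 24 samples) against the mean of 4 cell type lists (horizontal axes, same scale, number of genes tested in each title); points are samples coloured by arm. ENT+PD1 replicates 5 and 6 stand at the top right for dendritic cells and macrophages, and at the left for epithelial and tumour cells.

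Relative to Ptprc, the CD45 gene of all leukocytes, H2-Ab1 and Cd74 were also highest in that pair of tumours, by a smaller margin. The ratio to Ptprc was taken for these members only, so this is not shown for the others. The ratio of H2-Ab1 to Ptprc was 18.5 and 18.3 in ENT+PD1 replicates 6 and 5, against a median of 9.66 over 24 samples. It was 16.5 in ENT replicate 3, 15.1 in ENT+CTLA4+HER2 replicate 2 and 14.9 in ENT+PD1 replicate 1. The lowest was 5.66 in ENT+CTLA4 replicate 6, so the ratio spanned 3.26-fold where H2-Ab1 itself spanned 8.98-fold. Ptprc was 438 and 556 in ENT+PD1 replicates 5 and 6 and 501 in ENT+PD1+CTLA4 replicate 1, whose ratio was 8.84. The ratio of Cd74 to Ptprc was 36.2 and 34.4 in ENT+PD1 replicates 5 and 6, 32.1 in ENT replicate 3 and 31.0 in vehicle replicate 5.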

How the data were processed

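Normalized gene values for 24 tumour samples were used as deposited by the authors, as a signal on a linear scale; limma is the only tool in the submitters' processing notes, and the normalization is not given in the sources used here. Every sample had a housekeeping geometric mean of 347. Dividing each sample by 1 factor returned whole counts for 100% of values above 1 (tolerance 0.05), in 15 columns directly and in 9 after leaving out values at exactly 1 (82 in all). Those recovered counts were used for edgeR and DESeq2 only. The main test was limma 3.58.1 (R 4.3.3; lmFit, eBayes with trend) on log2(value + 1), over 22 samples in 6 groups, with the 621 genes of at least 20 in at least 4 samples, and Benjamini-Hochberg adjusted p under 0.05; this scale understates the change of weak genes. The repeat-titled pair stayed out of this fit and entered alternatives only. Alternatives used edgeR 4.0.16, DESeq2 1.42.0, other scalings, pseudocounts, filters, blocks and single samples left out, and the fit was tested on simulated data. Genes named were the 8 members, the 10 other genes most like them, genes on the panel of the class II, processing and inducer list (not all are reported here), Cd4, Lag3, Cd40, Cd80, Cd86 and Cd83; the members, lists and tests were chosen with earlier results of these data known. Apart from remarks on how strong a signal was, levels of different genes were not compared, since each probe binds with its own efficiency. Ratios of genes are read across samples only. Promoter windows came from RefSeq. The number of molecules counted limits precision for Ciita and H2-Eb1.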

Additional observations from a re-analysis of the deposited data

Results flagged for a closer look

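In the ENT arm, replicate 3 stood far above the other 3 samples for H2-Aa (6625, next 3170), H2-Ab1 (2829, next 1326) and Ctsh (439, next 341), by a gap test within groups of 4 samples. ENT+CTLA4 replicate 6 had a ratio of H2-Aa to H2-Ab1 of 2.38 where the next sample of its arm had 2.11, and vehicle replicate 3 a ratio of H2-Aa to Cd74 of 0.859 where the next had 1.02. These are 5 flags among 70 gene or ratio and arm combinations, and chance flags about 1 in 20. In the repeat-titled pair, which the reported comparisons left out, Ctsh averaged 482 (461 and 503) and lay above every vehicle sample, the highest of which was 436; the pair ran on another cartridge than vehicle, so treatment and cartridge cannot be told apart there.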

How the results depend on the processing

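Of 468 counts of called members under alternatives, 463 stayed at the count of the reported test. The exceptions were ENT+CTLA4 against ENT fitted on the compared groups only (1 member, Ctss, adjusted p = 0.0121, among 7.41% of all genes), the F test with DESeq2 on recovered counts (1 member, Ctss, 0.0497, among 7.57%), and single samples left out, where the count ran from 0 to 2 for ENT+PD1 against ENT and from 0 to 1 for the F test (Ctsh without ENT+PD1 replicate 2, adjusted p = 0.0499, among 9.18%). With the cartridge as a block, which rests on the repeat-titled pair alone, the median of the members was 1.40 for ENT+CTLA4 and 1.38 for ENT+PD1+CTLA4 against vehicle, 1.60 and 1.74 against ENT, and 0.50 for ENT+PD1+CTLA4 against ENT+PD1. The cause was not tested. Without ENT+PD1 replicates 5 and 6 the medians were −0.10 against vehicle, 0.093 against ENT, 0.40 for ENT+PD1+CTLA4 against ENT+PD1 and 0.021 for the interaction. H2-Aa (−0.073), H2-Ab1 (−0.14), H2-Eb1 (−0.13), H2-DMa (−0.30) and Cd74 (−0.29) then turned sign against vehicle and Ciita (−0.12) against ENT, none of which had been called; H2-Eb1 and Ciita did not exceed the negative controls in 2 or more of the 4 samples of vehicle and of ENT, so the size of their differences is not measured. With single samples left out the median ran from 0.79 to 1.60 for ENT+PD1 against ENT and from 0.52 to 1.32 against vehicle. Under median rescaling 6 of the 10 most alike genes were shared. Same-numbered samples did not pair (40 pairs, median r −0.03, from −0.45 to 0.63, 14 above 0.1), and with the replicate block 0 members were called, the median being 1.04 for ENT+PD1 against ENT, −0.048 for ENT against vehicle, 0.92 for ENT+CTLA4+HER2 against ENT+CTLA4 and 0.75 against ENT+PD1+CTLA4, and 0.41 for ENT+PD1+CTLA4 against ENT. Depth limits Ciita and H2-Eb1, which stood above the negative controls in 12 and 17 of 24 samples.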
